A study of Mus musculus with 12 samples.

Results

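Colonic crypts of CBPAAp53-floxed mice were compared with those of CBPWTp53-floxed mice across all genes, using the 6 libraries whose labels give the genotypes AA and WT, out of 12 in the series. Each group held 3 libraries of separate mice on a C57BL/6 background, female and 8 weeks old according to the methods. The CBPAA allele is a germline knock-in in every cell of the body, made in embryonic stem cells with a neomycin cassette at exon 25 of *Crebbp* (the methods name cells of different strains in different places, C57BL/6N among them) and backcrossed to C57BL/6, and CBPWT littermates were the controls. Both groups carried floxed *Trp53* without Cre, so p53 was intact in them. The other 6 libraries, CBPWTp53ΔIEC and CBPAAp53ΔIEC, came from mice in which Villin-Cre deletes *Trp53* in intestinal epithelial cells, and they serve here as a second, separate pair of CBP genotypes. Crypts were released from the colon with EDTA, and poly(A) RNA was sequenced.

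CBP, encoded by *Crebbp*, is a histone acetyltransferase that transcription factors such as CREB, p53 and NF-κB subunits recruit to enhancers and promoters. The kinase IKKα phosphorylates CBP at a pair of serines, and phosphorylation there is known to shift the protein between p53 and NF-κB. In CBPAA mice both serines are alanines. The colonic crypt renews the epithelium from Lgr5+ stem cells at its base, whose daughters divide and then become absorptive colonocytes, mucus-producing goblet cells, hormone-secreting enteroendocrine cells or tuft cells. The question was which genes of this epithelium differ when the serines are lost while p53 is present.

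The mutated stretch lies in exon 25 of *Crebbp*, on the minus strand of chromosome 16 (chr16:4094266-4094320, GRCm38). It is shown as the GENCODE reference gives it, with the codons of serines 1383 and 1387 in capitals:
Crebbp reference: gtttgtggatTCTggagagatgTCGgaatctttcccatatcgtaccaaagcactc

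*Crebbp* itself was counted at 43.4, 47.1 and 57.6 CPM (read counts scaled to library size) in the CBPWTp53-floxed libraries and at 49.4, 39.6 and 46.5 CPM in the CBPAAp53-floxed libraries. These ranges overlapped, and the log2 fold change was -0.13 (standard error 0.13). Its paralogue *Ep300*, which encodes p300, was at 99.1, 111 and 112 CPM against 96.9, 55.2 and 81.6 CPM. All CBPAAp53-floxed libraries lay below, with replicate 2 lowest, and the log2 fold change was -0.46 (standard error 0.18, unadjusted p = 0.0217, adjusted p = 0.618 in edgeR). *Trp53* had 39.3 to 45.6 CPM in CBPWTp53-floxed and 43.5 to 52.6 CPM in CBPAAp53-floxed crypts, against 5.01 to 10.4 CPM in the 6 libraries of p53ΔIEC mice.

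Between 11177430 and 18029125 reads were counted per library. Epithelial genes were abundant in all libraries (*Epcam* at 1011 to 1477 TPM, a level scaled to gene length as well as library size), and the fibroblast collagens *Col1a1* and *Col3a1* had 0 to 5 reads. A pair of CBPAAp53-floxed libraries stood apart. Replicate 2 held 3607 reads of α-defensins, which Paneth cells of the small intestine make, 4188 of *Apoa1* and 782 of *Fabp6*, genes of small-intestinal enterocytes. The CBPWTp53-floxed libraries held 0, 0 and 0 defensin reads, 3 to 32 of *Apoa1* and 12 to 19 of *Fabp6*. Of the p53ΔIEC libraries, CBPWTp53ΔIEC replicate 1 and CBPAAp53ΔIEC replicates 1 and 3 held 5902 to 49661 defensin reads. Replicate 1 of CBPAAp53-floxed held 61 reads of *Xist*, the RNA that coats the inactive X chromosome in female cells, where the other 11 libraries held 5963 to 18880, and it held 0 reads of 4 Y-linked genes. The 440 X-linked genes tested had a median log2 deviation of -0.04 from the CBPWTp53-floxed mean in that library and of -0.11 in replicate 2. Of 30 stromal markers, 7 passed the filter on low counts and 7 others, *Lum* and *Postn* among them, were at 0 in the 6 libraries compared. The parts of these libraries in the results below were not tested beyond leaving each library out.

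**Figure D1:**
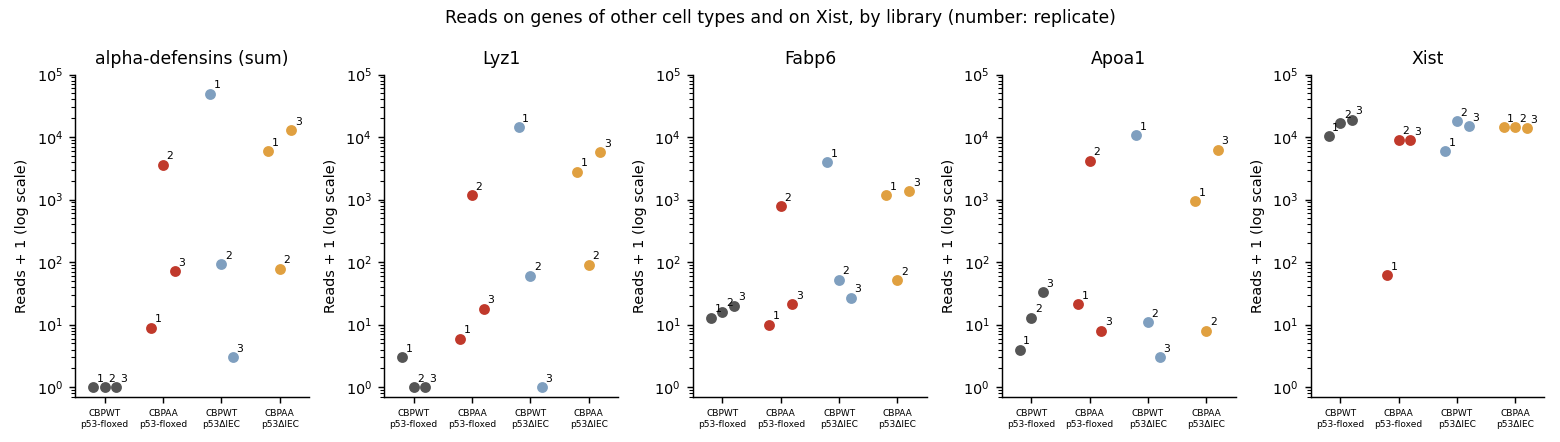
Reads plus 1 on a log scale for the summed α-defensins, *Lyz1*, *Fabp6*, *Apoa1* and *Xist* in each of the 12 libraries, with the replicate number beside each point. CBPAAp53-floxed replicate 2 has more *Lyz1*, *Fabp6* and *Apoa1* reads than any CBPWTp53-floxed library and 3607 defensin reads where those have 0, and CBPAAp53-floxed replicate 1 has 61 *Xist* reads.

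No gene passed the cutoff between CBPAAp53-floxed and CBPWTp53-floxed crypts. Of 14610 genes tested with edgeR's quasi-likelihood test, 0 (0.0%) had a Benjamini-Hochberg adjusted p under 0.05 with a log2 fold change over 0.5 in size. At an unadjusted p under 0.05, 564 genes (3.86%) lay higher and 610 (4.18%) lower. Together these 1174 genes became 635 and 689 without CBPWTp53-floxed replicates 2 and 3 and 730 without CBPAAp53-floxed replicate 2. The CPM ranges of the groups did not overlap for 1425 genes (9.75%) that lay higher and 1406 (9.62%) that lay lower in CBPAAp53-floxed crypts. On the log2 scale 1435 genes differed by more than 0.5 and 275 by more than 1, and the median standard error was 0.17. Genes are therefore named below as lying higher or lower, with their values, and none of them is a call. The 15 higher and 15 lower genes with the smallest unadjusted p, out of those with groups that did not overlap and a log2 fold change over 0.5 in size, had adjusted p-values from 0.058 to 0.618.

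**Figure D2:**
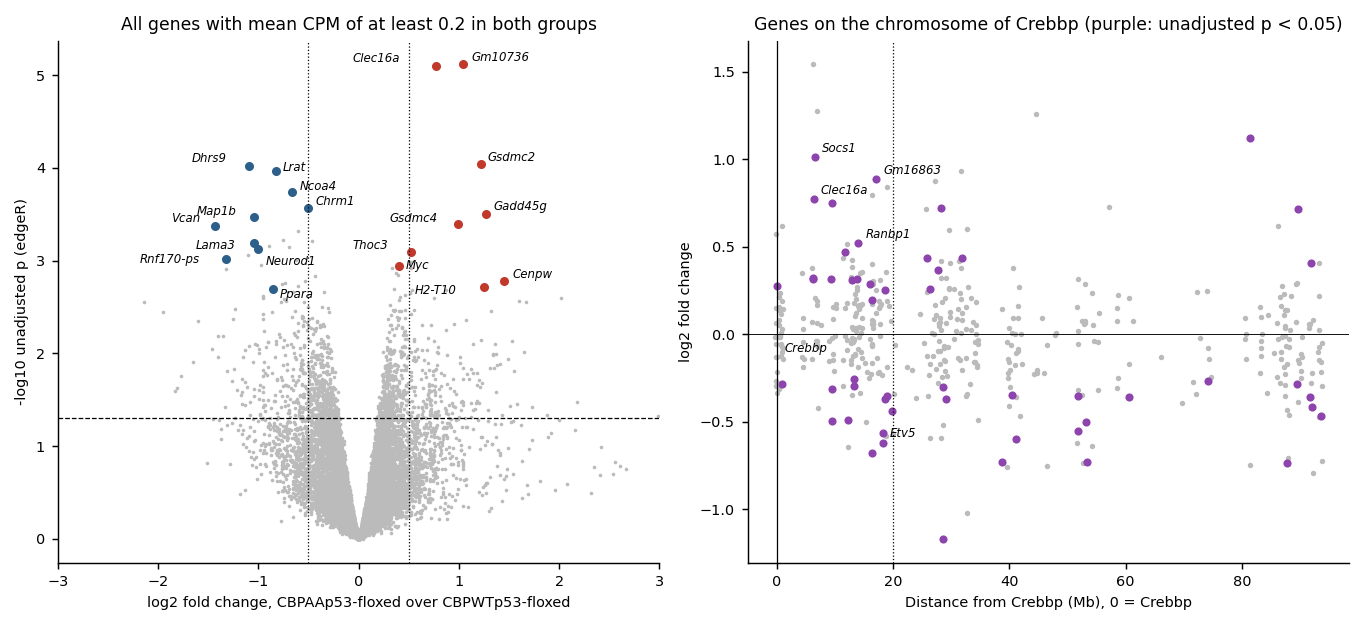
Left, log2 fold change (CBPAAp53-floxed over CBPWTp53-floxed) against the unadjusted edgeR p-value on a -log10 scale, with dotted lines at a size of 0.5 and a dashed line at 0.05, and 73 genes left out that were under 0.2 CPM in 1 group or beyond 3 in size. Right, log2 fold change of the genes tested on chromosome 16 by distance from *Crebbp*, with those past the dashed line in purple and a dotted line at 20 Mb. *Clec16a* and *Gm10736* stand above all other genes on the left, and *Clec16a* lies 6.33 Mb from *Crebbp* on the right.

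*Clec16a*, a regulator of autophagy and of the turnover of mitochondria, gave the tightest difference. It was at 25.9, 25.8 and 24.9 CPM in CBPWTp53-floxed and at 46.1, 42.2 and 42.5 CPM in CBPAAp53-floxed crypts. The groups were far apart relative to their spread, with means of 25.5 ± 0.512 and 43.6 ± 2.16 CPM (SD, n = 3). Its log2 fold change was 0.77 (standard error 0.11, adjusted p = 0.058 in edgeR), and leaving out any of the 12 libraries kept it between 0.73 and 0.79. In the p53ΔIEC mice the same gene was at 18.8, 23.4 and 22.8 CPM with CBPWT and at 36.1, 41.5 and 43.1 CPM with CBPAA. There it rose in CBPAA crypts, by 0.89 on the log2 scale (standard error 0.11, adjusted p = 0.0269 in edgeR), and it was the 1 gene called (0.00684% of those tested) in that comparison, whose 6 libraries are not among those of the first. In edgeR the call needed the spread estimated over all 12 libraries. With edgeR on the 6 p53ΔIEC libraries alone the log2 fold change was 0.89 and the adjusted p was 1.0. *Clec16a* was, however, 1 of the 3 genes called from these 6 libraries by DESeq2, beside *Ifi44* and *Oasl2*. As single libraries were left out, its adjusted p ranged from 0.0403 to 0.24 in edgeR and stayed under the threshold in 2 of the 12 fits, without CBPAAp53-floxed replicate 2 or CBPAAp53ΔIEC replicate 1. The contrast of the p53ΔIEC mice minus that of the p53-floxed mice was 0.12 (standard error 0.15, adjusted p = 0.778 in edgeR). *Clec16a* lies on chromosome 16 (chr16:10545339-10744878, plus strand), 6.33 Mb from *Crebbp* itself, and the antisense gene *Gm15558* overlaps it.

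*Gm10736* differed as strongly and in opposite directions by p53 state. It is a processed pseudogene of 78 bases on the minus strand of chromosome 13 (chr13:111593534-111593611), whose whole sequence is found without a mismatch in a transcript of *Rpl41*, a ribosomal protein gene:
Gm10736: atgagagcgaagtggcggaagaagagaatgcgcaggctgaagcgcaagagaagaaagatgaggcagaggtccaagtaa
Reads from this sequence cannot be assigned to 1 of the pair with certainty. On the TPM scale the pseudogene was at 354, 374 and 361 in CBPWTp53-floxed and at 616, 674 and 741 in CBPAAp53-floxed crypts. It was at 504, 501 and 633 TPM in CBPWTp53ΔIEC and at 357, 375 and 329 TPM in CBPAAp53ΔIEC crypts. The 4 groups therefore fell into a lower pair and a higher pair with no overlap between them. *Rpl41* was at 2177 to 2828 TPM in the 12 libraries and did not follow that pattern, and its log2 fold change in the p53-floxed mice was 0.09 (standard error 0.16). The log2 fold change of *Gm10736* was 1.04 (standard error 0.15, adjusted p = 0.058 in edgeR) in the p53-floxed mice and -0.67 (standard error 0.15, adjusted p = 0.985) in the p53ΔIEC mice. The difference of these contrasts was the 1 call (0.00684%) of the interaction test, at -1.71 (standard error 0.21, adjusted p = 0.0222 in edgeR). Leaving out single libraries gave it adjusted p-values from 0.00665 to 0.154 and sizes from -1.84 to -1.56, and 3 of the 12 fits kept the call, those without CBPAAp53-floxed replicate 1 or CBPWTp53ΔIEC replicate 1 or 2.

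Of the 15 higher genes, the gasdermin C genes *Gsdmc2* and *Gsdmc4* had the highest CPM. *Gsdmc2*, of a family whose cleaved products form pores in membranes and which type 2 cytokines induce in the gut, was at 292, 231 and 294 CPM in CBPWTp53-floxed and at 602, 513 and 783 CPM in CBPAAp53-floxed libraries. The groups lay far apart, and the log2 fold change was 1.22 (standard error 0.22, unadjusted p = 9.13e-05, adjusted p = 0.319 in edgeR). *Gsdmc4* was at 449, 374 and 462 against 876, 620 and 1063 CPM (log2 fold change 0.99, standard error 0.21), and *Gsdmc3* at 80.2, 89.2 and 96.1 against 137, 108 and 184 CPM (0.69, standard error 0.21). The order of the CBPAA libraries was the same for all 3 genes, with replicate 2 lowest and replicate 3 highest. These copies are near-identical, so the counting could have split their reads. In the p53ΔIEC mice *Gsdmc2* was at 422 to 473 CPM with CBPWT and at 283 to 526 CPM with CBPAA, with overlapping groups.

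*Gadd45g*, a stress-induced gene linked to growth arrest and DNA demethylation, was at 2.69, 2.95 and 3.44 CPM against 5.51, 7.71 and 8.83 CPM (log2 fold change 1.27, standard error 0.26, unadjusted p = 0.000315). Its relatives *Gadd45a* and *Gadd45b* differed by 0.17 (standard error 0.12) and 0.27 (standard error 0.17), with overlapping groups. Genes of the replication and nuclear machinery came next in rank. *Rfc3*, a subunit of the clamp loader of DNA replication, was at 8.35, 7.84 and 8.78 against 11.9, 12.3 and 11.6 CPM (log2 fold change 0.52, standard error 0.13). *Cenpw*, a centromere protein gene, was at 0.539, 0.767 and 0.4998 against 1.21, 1.52 and 2.32 CPM, values that rest on 6 to 27 reads per library. *Thoc3*, of the THO complex that couples transcription to mRNA export, differed by 0.52 (standard error 0.12) and *Rcl1*, which acts in ribosomal RNA processing, by 0.53 (standard error 0.13). *Sphk1*, which makes sphingosine 1-phosphate, had 1, 0 and 1 reads in CBPWTp53-floxed and 4, 10 and 8 reads in CBPAAp53-floxed libraries, a ratio per library size of 12.0 with an exact 95% counting interval of 2.95 to 105. The rest of the 15 higher genes were *Lrrc42*, *Dynlt1b*, *Impact*, *Dipk1b* and *H2-T10*, a nonclassical MHC class I gene, with log2 fold changes from 0.52 for *Impact* to 1.25 for *H2-T10* (standard errors 0.14 and 0.32). *Dynlt1b* and *H2-T10* belong to families of close copies, which leaves their counts uncertain.

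The genes that lay lower in CBPAAp53-floxed crypts included enzymes of vitamin A metabolism. *Dhrs9*, which oxidises retinol, was at 18.5, 16.8 and 14.2 CPM in CBPWTp53-floxed and at 8.84, 6.08 and 8.38 CPM in CBPAAp53-floxed libraries (log2 fold change -1.09, standard error 0.20, unadjusted p = 9.53e-05, adjusted p = 0.319 in edgeR). *Lrat*, which stores retinol as retinyl esters, was at 22.2, 20.7 and 18.6 against 11.6, 10.0 and 13.1 CPM (-0.82, standard error 0.15). With all libraries the retinoid genes as a list were split: of 25 tested, 12 lay higher and 13 lower. At an unadjusted p under 0.05, 2 lay lower (these enzymes), against 4.18% of all genes. The median log2 fold change was -0.02, against 0.01 over all genes. Without CBPAAp53-floxed replicate 2 it was -0.14, and 18 of the 25 lay lower and 7 higher. *Ncoa4*, the receptor that delivers ferritin to autophagy and so frees its iron, was at 67.5, 66.8 and 71.0 against 46.1, 36.6 and 47.2 CPM (-0.66, standard error 0.13), and its pseudogene *Ncoa4-ps*, a close copy with which reads may have been shared, lay lower too (-0.75, standard error 0.17). Of the 23 iron-handling genes tested, 3 lay lower and 0 higher at an unadjusted p under 0.05, against 4.18% and 3.86% of all genes, and the median was -0.02.

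The rest of the 15 lower genes were of mixed kinds. *Lama3*, a chain of the laminin on which epithelial cells sit, was at 41.0, 45.4 and 39.99 CPM against 19.2, 18.8 and 23.4 CPM (log2 fold change -1.05, standard error 0.23, unadjusted p = 0.000648). *Lamb3*, which encodes a chain it pairs with, differed by -0.01 (standard error 0.29), within its spread. *Vcan*, which encodes the matrix proteoglycan versican, was at 3.05, 4.54 and 3.89 against 1.36, 1.24 and 1.69 CPM (-1.44, standard error 0.31, unadjusted p = 0.000422), from 18 to 77 reads per library. The summed level of the stromal markers was 87.8 to 94.7 TPM in CBPWTp53-floxed and 82.5 to 97.9 TPM in CBPAAp53-floxed crypts, with overlapping groups. Of these 30 markers 7 passed the filter on low counts, 4 of them higher and 3 lower, and the amount of stroma was not tested. *Nrp2*, a co-receptor for semaphorins and VEGF, was at 91.7, 100.2 and 115 against 64.4, 72.8 and 65.0 CPM (-0.60, standard error 0.13). *Chrm1*, the M1 muscarinic acetylcholine receptor, had narrow groups, at 35.5, 34.9 and 36.7 against 24.8, 23.5 and 27.3 CPM (-0.50, standard error 0.10). *Map1b*, which binds microtubules in neurons, *Cacna2d1*, an auxiliary subunit of calcium channels, and *Arhgap20*, a GTPase-activating protein gene, differed by -1.04, -1.10 and -0.70 (standard errors 0.22, 0.26 and 0.16). Markers of enteric neurons and glia summed to 2.62 to 3.83 TPM and to 2.28 to 3.35 TPM in the same groups, with *Sox10* at 0. The imprinted genes *Peg3* and *Plagl1* lay lower by -0.90 and -1.03 (standard errors 0.20 and 0.24), whereas *Impact*, also imprinted, is among the higher genes. *Rnf170-ps*, a pseudogene, and *Neurod1*, described below with the enteroendocrine genes, completed the 15.

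**Figure D3:**
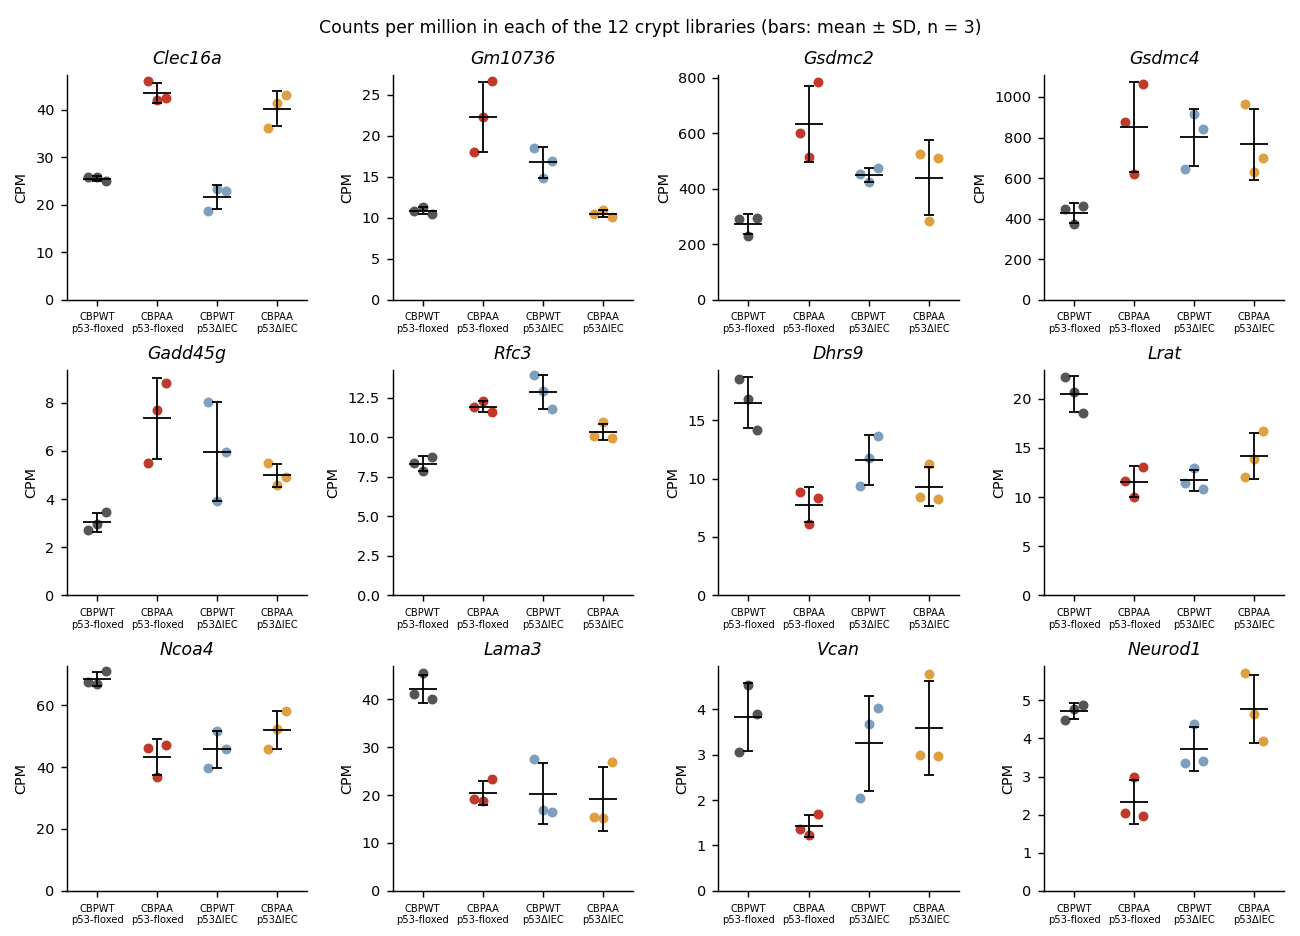
CPM of 12 of the named genes in each library of the 4 groups, with the mean and SD (n = 3). In CBPAAp53-floxed against CBPWTp53-floxed crypts no group overlaps in any panel, while among the p53ΔIEC libraries the genotypes separate for *Clec16a*, *Gm10736* and *Rfc3*, the last pair in the opposite direction.

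Most of these genes did not differ in the same direction in the p53ΔIEC mice. Their 6 libraries gave none of the levels compared above, but they shared the filter and the estimate of the spread behind the p-values that ranked the genes. Of the 15 genes that lay higher in CBPAAp53-floxed crypts, 4 had a log2 fold change above 0 in CBPAAp53ΔIEC against CBPWTp53ΔIEC crypts, and of the 15 that lay lower, 3 had one below 0. Over all genes tested, 6973 of 14610 were above 0 there, and 521 (3.57%) had an unadjusted p under 0.05, 264 (1.81%) higher and 257 (1.76%) lower. Of the 15 higher and of the 15 lower genes, 3 each had one. *Lama3* shows the levels behind this. It was at 27.6, 16.9 and 16.5 CPM in CBPWTp53ΔIEC and at 15.4, 15.3 and 26.9 CPM in CBPAAp53ΔIEC libraries, a range below the CBPWTp53-floxed libraries in both genotypes. *Chrm1* was likewise at 23.1 to 27.4 CPM with CBPWT and at 23.8 to 25.6 CPM with CBPAA, below the 34.9 CPM of the lowest CBPWTp53-floxed library. *Vcan* lay at 2.05 to 4.02 CPM and at 2.97 to 4.78 CPM, and *Neurod1* at 3.36 to 4.37 CPM and at 3.94 to 5.71 CPM. Comparisons of a p53ΔIEC group with CBPWTp53-floxed share the CBPWTp53-floxed libraries with the contrast that chose these genes. The interaction test gave 1502 genes (10.3%) an unadjusted p under 0.05. The 15 higher genes were shorter than the 15 lower genes, with median exonic lengths of 2428 and 9365 bases. The trend of the log2 fold change along gene length was opposite in the p53ΔIEC mice, as described below. Its part in the signs of these genes there was not tested.

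Of the cell lineages of the crypt, enteroendocrine genes moved together most. Of 22 markers tested, 19 lay lower and 3 higher in CBPAAp53-floxed crypts, 8 lay lower without overlap of the groups (36.4%, against 9.62% of all genes), and the median log2 fold change was -0.38 against 0.01 over all genes. *Neurod1*, the transcription factor of early endocrine cells, was at 4.49, 4.78 and 4.89 against 2.04, 2.98 and 1.96 CPM (-1.003, standard error 0.23, unadjusted p = 0.000747, adjusted p = 0.575 in edgeR). *Tph1*, the enzyme of serotonin synthesis in enterochromaffin cells, was at 48.2, 46.4 and 42.8 against 21.8, 36.2 and 32.4 CPM (-0.60, standard error 0.22, unadjusted p = 0.0196). *Gcg*, the precursor of glucagon-like peptides, was at 34.4, 28.8 and 30.9 against 18.4, 26.1 and 24.2 CPM (-0.45, standard error 0.19, unadjusted p = 0.0316). Secretory granule protein *Chgb* was at 279, 293 and 294 against 147, 270 and 223 CPM, all below (-0.44, standard error 0.21). CBPAAp53-floxed replicate 2 was the highest of its group for these 4 genes, and without it 21 of the 22 markers lay lower, with a median of -0.61. Without replicate 1, 18 lay lower, with a median of -0.24. The 3 at an unadjusted p under 0.05, *Neurod1*, *Tph1* and *Gcg*, became 9 without replicate 2 and 1 without replicate 1. Over all genes, 4.18% lay lower at that threshold with all libraries. Without replicate 2 it was 389 of 14881 genes, and without replicate 1 it was 933 of 14936. With CBPAA in the p53ΔIEC mice, 4 of the 22 markers lay higher, and the median was -0.13. In bulk RNA, fewer enteroendocrine cells and less of these RNAs per cell cannot be told apart.

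Genes of Notch signalling and secretory fate also leaned low, with 14 of 19 tested lower and a median of -0.20. Of the 14, 6 lay lower without overlap (31.6% of the list, against 9.62% of all genes). *Hes1*, the Notch target that represses the secretory fate, was the 1 member that lay higher at an unadjusted p under 0.05, at 55.9, 47.2 and 63.6 against 76.2, 88.0 and 61.3 CPM (log2 fold change 0.44, standard error 0.13). The 5 lower ones were *Neurod1*, which both lists hold, *Cbfa2t3*, *Notch1* (-0.59, standard error 0.24), *Spdef*, which drives goblet cell maturation (-0.38, standard error 0.16), and *Gfi1*, which acts downstream of *Atoh1* (-0.56, standard error 0.26). At an unadjusted p under 0.05 in edgeR, 4.18% of all genes lay lower and 3.86% higher. *Atoh1* itself, the switch to the secretory fate, was at 138, 111 and 141 against 113, 113 and 116 CPM (-0.19, standard error 0.17). With CBPAA in the p53ΔIEC mice, 14 of the 19 genes of this list lay higher, with a median of 0.23. Goblet cell genes were split in CBPAAp53-floxed crypts, with 10 of 20 higher and 10 lower and a median of -0.01. *Muc2*, the main colonic mucin, was lower in all 3 CBPAAp53-floxed libraries (7905, 8919 and 8498 against 6378, 6458 and 7488 CPM, -0.32, standard error 0.19), whereas *Reg4* was higher in all of them (341, 225 and 407 against 548, 789 and 1724 CPM, 1.65, standard error 0.52, unadjusted p = 0.00974). The list of the type 2 response, the reaction of the epithelium to IL-4 and IL-13, had 11 of 15 members higher and a median of 0.69, 4 of them at an unadjusted p under 0.05, which were the gasdermins *Gsdmc2*, *Gsdmc4* and *Gsdmc3* and *Pla2g4c*. Of all genes 3.86% lay higher at that threshold. Without CBPAAp53-floxed replicate 3 the median of the list was 0.23. In the same list *Retnlb* was at 308, 404 and 381 against 686, 354 and 1574 CPM, so that replicate 2 lay within the control range and replicate 3 far above it.

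*Lgr5*, the marker of crypt base stem cells, was at 19.7, 17.7 and 18.1 against 21.4, 17.0 and 23.5 CPM (log2 fold change 0.16, standard error 0.13). Of 19 stem cell genes tested 13 lay higher, 1 of them, *Cdca7*, at an unadjusted p under 0.05 (0.39, standard error 0.16), and the median was 0.06. Without CBPAAp53-floxed replicate 2, 4 of them had an unadjusted p under 0.05, all higher, and the median was 0.19. Of all 14881 genes in that fit, 341 lay higher at that threshold. *Myc*, a Wnt target counted with the immediate early genes, was at 32.7, 34.7 and 40.8 against 48.9, 46.4 and 47.7 CPM (0.40, standard error 0.10, unadjusted p = 0.00113, adjusted p = 0.605 in edgeR), and it lay higher in the p53ΔIEC mice too (0.30, unadjusted p = 0.00884). Proliferation genes leaned high. Of 30 tested, 24 lay higher, 15 of them without overlap (50%, against 9.75% of all genes), and the median was 0.24. The 15 were *Mcm2* to *Mcm7* of the replicative helicase, *Pcna*, *Rrm1*, *Rrm2*, *Gins2*, *Cdc6*, *Uhrf1*, *Ccne1*, *Cdk1* and *Birc5*. *Mcm6* was at 24.9, 26.9 and 31.1 against 45.5, 35.6 and 40.5 CPM (0.55, standard error 0.19, unadjusted p = 0.0110), and *Rrm2*, of ribonucleotide reductase, at 15.6, 8.85 and 11.3 against 21.8, 20.8 and 16.9 CPM (0.74, standard error 0.27, unadjusted p = 0.0156). These were the 2 members at an unadjusted p under 0.05. *Mki67*, which encodes Ki-67, was at 94.4, 106 and 83.4 against 118, 54.9 and 93.2 CPM, with overlapping groups. Its log2 fold change was -0.10 (standard error 0.48), and 0.15 without CBPAAp53-floxed replicate 2. The count of 24 was 21 without CBPAAp53-floxed replicate 1 and 27 without replicate 2. In the p53ΔIEC mice 0 of the 30 genes lay higher with CBPAA, and their median there was -0.34. Their summed TPM there was 511, 1080 and 1173 with CBPWT and 922.5, 895.8 and 365.7 with CBPAA, with overlapping groups. The lowest library of each genotype, CBPWTp53ΔIEC replicate 1 and CBPAAp53ΔIEC replicate 3, was among those rich in defensin reads.

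**Figure D4:**
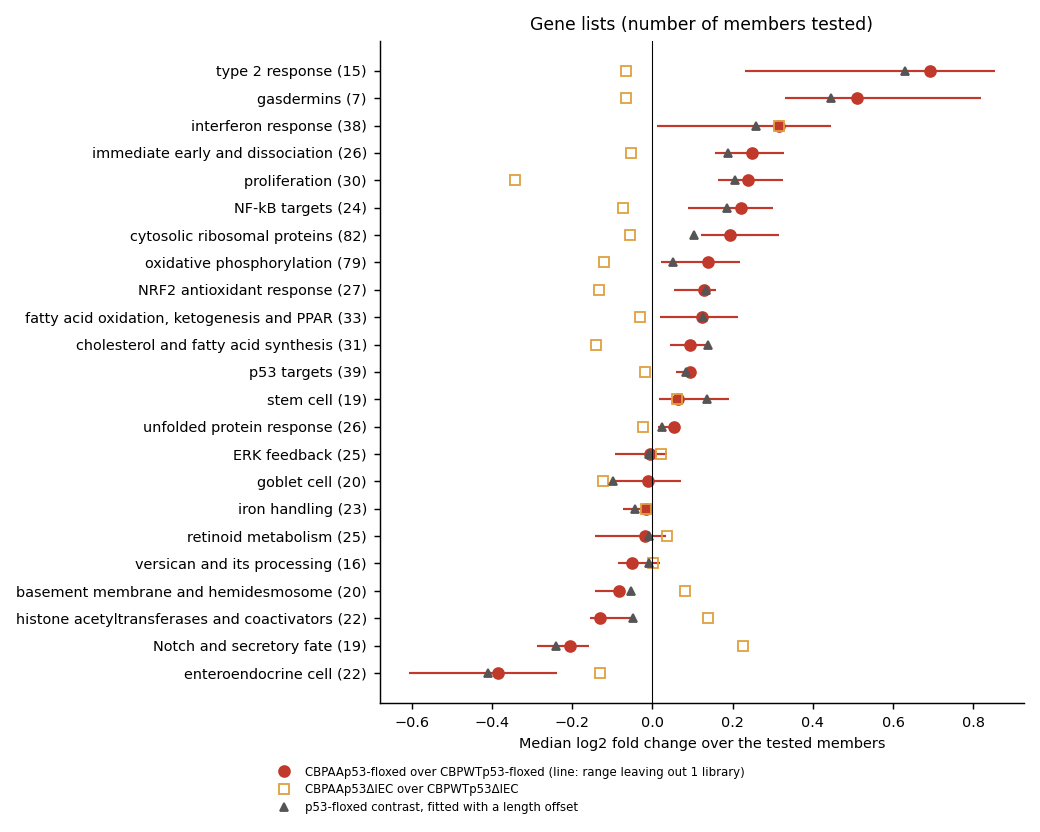
Median log2 fold change over the tested members of 23 gene lists in CBPAAp53-floxed against CBPWTp53-floxed crypts (red, with the range when 1 of the 12 libraries is left out), in CBPAAp53ΔIEC against CBPWTp53ΔIEC crypts (open squares) and in the first comparison refitted with an offset for gene length (triangles). Enteroendocrine genes lie lowest at -0.38, and proliferation genes lie at 0.24 in the first comparison and at -0.34 in the second.

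For genes tied to CBP and to the factors it serves, the list medians lay between -0.13 and 0.22, and single members differed more. Of 22 histone acetyltransferases and coactivators tested, 14 lay lower with a median of -0.13, which was -0.06 without CBPAAp53-floxed replicate 2 and -0.05 with the offset for gene length described below. Of the members *Creb1* (-0.57, standard error 0.20), *Ep300* and *Kat6a* (-0.51, standard error 0.20) lay lower at an unadjusted p under 0.05. In edgeR, 0 of the 22 had an unadjusted p under 0.05 without CBPAAp53-floxed replicate 2, against 730 of all 14881 genes in that fit. Without replicate 1, 8 of the 22 did, all lower, against 1695 of 14936 genes, 933 of them lower. Of 39 p53 targets tested, 24 lay higher and 15 lower, the median was 0.09, and 1, *Trp53inp1*, had an unadjusted p under 0.05 (-0.37, standard error 0.17). Without CBPAAp53-floxed replicate 2 that median was 0.06. The cell cycle inhibitor *Cdkn1a* (p21) was at 242, 213 and 235 against 286, 287 and 197 CPM, with overlapping groups (0.16, standard error 0.20), and *Mdm2*, which targets p53 for degradation, differed by -0.09 (standard error 0.12). Of 24 NF-κB targets tested, 16 lay higher with a median of 0.22, which was 0.09 without CBPAAp53-floxed replicate 2 and 0.00 over the members with at least 10 counts in every library. The 5 at an unadjusted p under 0.05 were all higher and mostly scarce: *Csf1* at 1.26, 0.472 and 0.722 against 3.02, 1.75 and 1.25 CPM, *Ccl20* at 0.808, 0.590 and 0.777 against 2.04, 1.86 and 0.981 CPM, *Icam1*, *Tnfaip2* and *Irf1*. Of these *Irf1*, an activator of interferon genes, was abundant, at 145, 163 and 145 against 252, 222 and 154.1 CPM (0.47, standard error 0.17). At an unadjusted p under 0.05, 3.86% of all genes lay higher. Without CBPAAp53-floxed replicate 1, 1 of the 24 NF-κB targets had an unadjusted p under 0.05.

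The interferon response list had 31 of 38 members higher and a median of 0.31, which fell most when 1 particular library was left out. Without CBPAAp53-floxed replicate 1, 21 lay higher and the median was 0.01. *Gbp4*, an interferon-induced GTPase, was at 9.06 CPM in that library and at 0.624 to 1.29 CPM in the other 5 of the comparison. MHC class II genes, all 8 tested higher with 0 at an unadjusted p under 0.05, split the CBPAAp53-floxed group in another way. Their summed TPM was 308, 308 and 298 in CBPWTp53-floxed and 588, 630 and 261 in CBPAAp53-floxed libraries, so on this scale replicate 3 lay below the controls. On the log2 CPM scale, their median deviation from the CBPWTp53-floxed mean was -0.23, -0.01 and 0.21 in the CBPWTp53-floxed libraries. In the CBPAAp53-floxed libraries it was 2.49, 2.12 and 0.05, so there replicate 3 lay within the control range. The summed TPM of T cell and intraepithelial lymphocyte markers was 24.0 to 47.6 and 30.6 to 56.9, with overlapping groups. Of 16 such markers tested 15 lay higher, with a median of 0.35, and without CBPAAp53-floxed replicate 2 the median was 0.01. In the p53ΔIEC mice all 16 lay higher with CBPAA, with a median of 0.49. Of the 38 interferon genes 23 lay higher there, with a median of 0.32. The part of lymphocytes in the interferon and MHC values was not tested.

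Among metabolic and housekeeping groups, 79 of 82 cytosolic ribosomal protein genes lay higher, with a median of 0.19, and 70 of 79 nuclear genes of oxidative phosphorylation, with a median of 0.14. Over all genes 52.0% lay higher. The members of both lists are short, with median exonic lengths of 1776 and 1675 bases against 3957 bases over all genes tested, and of the protein-coding genes up to 2486 bases long 74.2% lay higher. Without CBPAAp53-floxed replicate 2, 69 of the ribosomal and 45 of the oxidative phosphorylation genes lay higher, with medians of 0.12 and 0.02. *Ppara*, the nuclear receptor that governs fatty acid oxidation, was the 1 gene of its list of 33 at an unadjusted p under 0.05, at 29.6, 31.5 and 31.2 against 19.3, 10.9 and 21.1 CPM (-0.86, standard error 0.22, unadjusted p = 0.00200), while 30 of the 33 lay higher, with a median of 0.12. Without CBPAAp53-floxed replicate 2, 22 of them lay higher and the median was 0.02. Of 27 NRF2 antioxidant genes tested 20 lay higher, 4 at an unadjusted p under 0.05 (2 without that replicate), with *Gpx2*, the gut glutathione peroxidase, at 252, 257 and 200.7 against 318, 280 and 370 CPM (0.45, standard error 0.18). Of 26 genes of the unfolded protein response, 5 lay higher and 1, the sensor *Ern1*, lower at that threshold, against 3.86% and 4.18% of all genes, and 2 lay higher at it without CBPAAp53-floxed replicate 2. Of 20 basement membrane and hemidesmosome genes, 18 lay lower but with a median of only -0.08, and beside *Lama3* those at an unadjusted p under 0.05 were *Dst* (-0.56, standard error 0.16), *Hspg2* (-0.80, standard error 0.24) and *Itga2* (-0.32, standard error 0.14). The members of this list are long, with a median exonic length of 8156 bases. Of the protein-coding genes of at least 7594 bases, 25.95% lay higher, and 9.57% lay lower at an unadjusted p under 0.05.

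Gene length moved with the difference between the groups. When the 12486 protein-coding genes tested were split into 5 bins of equal size by exonic length, the median log2 fold change went from 0.13 in the shortest bin (66 to 2486 bases) through 0.07, 0.01 and -0.04 to -0.12 in the longest (7594 to 123179 bases). In the shortest bin 6.61% of genes lay higher and 1.36% lower at an unadjusted p under 0.05, and in the longest 0.881% and 9.57%. Across these genes, which are not independent replicates, Spearman's rank correlation of the log2 fold change with length was -0.38. In the p53ΔIEC mice the order was the reverse, from -0.10 to 0.08, with a rank correlation of 0.32. CBPAAp53-floxed replicate 2 carried most of the trend: relative to the CBPWTp53-floxed mean, its median went from 0.26 in the shortest bin to -0.31 in the longest, while replicate 1 went from -0.01 to -0.01 and replicate 3 from 0.08 to -0.06. Without replicate 2 the medians of the contrast went from 0.03 to -0.04. Of the p53ΔIEC libraries, CBPWTp53ΔIEC replicate 1 went furthest, from 0.21 to -0.23 relative to the CBPWTp53-floxed mean. The other p53ΔIEC libraries had medians of 0.01 to 0.09 in the shortest bin and of -0.08 to -0.02 in the longest. The 15 higher genes named above had a median exonic length of 2428 bases and the 15 lower genes of 9365 bases.

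**Figure D5:**
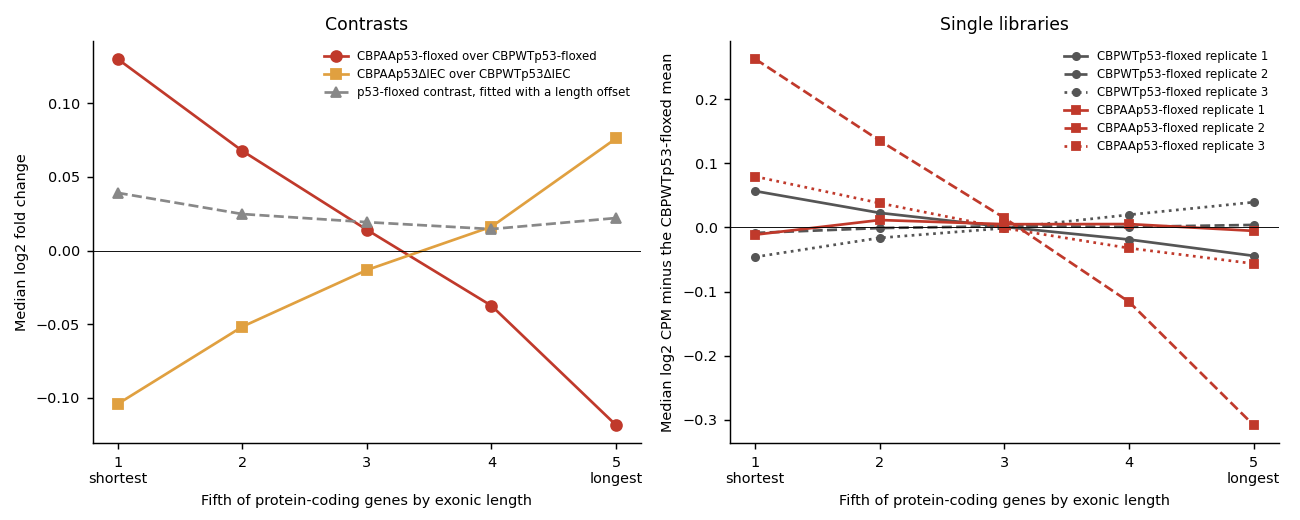
Left, median log2 fold change in 5 bins of 12486 protein-coding genes by exonic length for both CBP comparisons and for the first one refitted with a length offset. Right, median log2 CPM relative to the CBPWTp53-floxed mean for each library of the comparison. The first contrast falls from 0.13 to -0.12 along the bins, and CBPAAp53-floxed replicate 2 from 0.26 to -0.31.

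The comparison was therefore refitted with an offset for a smooth trend on length in each library, a setting chosen after the values were seen. The medians of the bins then lay between 0.01 and 0.04, and 565 genes (3.87%) lay higher and 565 (3.87%) lower at an unadjusted p under 0.05. Among 14593 genes 2 (0.0137%) passed the cutoff, *Clec16a* (log2 fold change 0.88, adjusted p = 0.00811 in edgeR) and *Gm10736* (0.90, adjusted p = 0.0186). All 15 higher and all 15 lower genes kept their sign, and *Vcan* was at -1.23 (unadjusted p = 0.000579), *Lama3* at -0.90, *Neurod1* at -1.06 and *Dhrs9* at -1.09. Medians of lists of short genes shrank, from 0.19 to 0.10 for ribosomal proteins and from 0.14 to 0.05 for oxidative phosphorylation. Those of enteroendocrine (-0.41) and proliferation genes (0.21) moved less. The basement membrane list went from 18 to 12 of 20 members lower, and *Crebbp* from -0.13 to 0.05.

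Genes close to the knock-in allele on chromosome 16 tend to be inherited with it. How much flanking DNA from the stem cells remained after the backcross was not tested. For genes within it, an effect of the mutated serines and one of the flanking DNA cannot be told apart. Of 191 genes tested within 20 Mb, 15 lay higher and 12 lower at an unadjusted p under 0.05, together 14.1%, against 9.19% of the 272 on the rest of the chromosome and 8.04% of all genes. The count within 20 Mb ran from 13 to 33 as single libraries were left out, and it was 13 without CBPWTp53-floxed replicate 2 and 14 without CBPWTp53-floxed replicate 3 or CBPAAp53-floxed replicate 2. Beside *Clec16a*, those of the 27 with a difference over 0.5 in size were *Socs1*, *Pla2g10os*, *Ranbp1* and *Gm16863* on the higher side and *Vwa5b2*, *Etv5* and *Dgkg* on the lower. *Socs1*, an inhibitor of cytokine signalling whose gene lies next to *Clec16a*, was at 1.89, 1.83 and 2.39 against 4.91, 5.63 and 1.69 CPM, so that replicate 3 lay below all controls (1.01, standard error 0.34, unadjusted p = 0.0109). *Etv5*, an ETS factor downstream of ERK, was at 35.2, 37.8 and 38.2 against 22.8, 23.8 and 25.9 CPM (-0.62, standard error 0.26, unadjusted p = 0.0324). *Gm16863* was at 1.89, 1.89 and 1.83 against 3.47, 3.27 and 3.65 CPM (0.89, standard error 0.30). None of these 7 had an unadjusted p under 0.05 in the p53ΔIEC mice. Within 20 Mb, 11 of the 191 genes had one there, against 3.57% of all genes. *Trap1*, whose gene adjoins *Crebbp*, lay higher by 0.28 (unadjusted p = 0.0170), and *Adcy9* on its other side differed by -0.33 (unadjusted p = 0.268).

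A different count model gave calls. DESeq2 on the 12 libraries called 24 genes (0.164%) higher and 10 (0.0684%) lower, of which 19 were α-defensins. These rested on the libraries described above: *Defa24* had 0, 0 and 0 reads in CBPWTp53-floxed and 4, 1482 and 50 reads in CBPAAp53-floxed crypts. The other 15 were *Clec16a*, *Gm10736*, *Gsdmc2*, *Gsdmc4* and *Gadd45g*, which rose, and *Dhrs9*, *Lrat*, *Ncoa4*, *Chrm1*, *Lama3*, *Nrp2*, *Ncoa4-ps*, *Vcan*, *Arhgap20* and *Klhl42*, which fell, with adjusted p-values in DESeq2 from 5.43e-07 for *Clec16a* to 0.0415 for *Klhl42*. *Klhl42*, an adaptor of a ubiquitin ligase, was the 1 gene of these not named above, at 26.0, 28.1 and 28.4 against 18.4, 14.97 and 20.4 CPM (-0.62, standard error 0.15 in edgeR).

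CREB, a partner of CBP, binds the palindrome TGACGTCA and, more weakly, its part TGACG. Both were looked for on either strand of the RefSeq windows from 250 bases before to 50 bases after each transcription start (GRCm38.p6), where the part also counts inside the palindrome. Of the 30 named genes, 19 had a window. The palindrome stood in that of *Cenpw* among 8 higher genes and of *Peg3* among 11 lower genes, against 3.51% of the genes tested. The part stood in 4 of 8 (50%) and 4 of 11 (36.4%), against 34.7%. The numbers are small, and the shares of the shorter motif lay near the background.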

How the data were processed

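RNA of colonic crypts was sequenced in 12 libraries, 1 per mouse and 3 per group, with 11177430 to 18029125 reads counted per library. Per the labels, the kit was stranded, and whether the counting used strand is not given in the sources used here. The submitters' processing notes name fastp 0.20.0, FastQC 0.11.9, HISAT2 2.1.0, SAMtools 1.9, featureCounts of Subread 2.0.1 and GRCm38. The authors deposited raw read counts per gene and, in the same table, TPM values, which scale counts to gene length and library size. The counts were tested here and TPM served for levels of different genes, marker sums and the levels of *Gm10736* beside *Rpl41*. The 15 columns of the authors' own comparisons (log2 fold changes and p-values) were not used. Of 55471 genes, 55144 were found in GENCODE vM21.

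Genes were filtered with filterByExpr (minimum count 10), scaled by TMM and fitted with edgeR 4.0.16 (robust quasi-likelihood test, R 4.3.3) as 1 factor of 4 groups over all 12 libraries. Calls were genes whose log2 fold change exceeded 0.5 in size at a Benjamini-Hochberg adjusted p under 0.05. The standard error is the log2 fold change over the root of the F statistic. Alternatives were DESeq2 1.42.0, other filters, the compared groups alone, leaving out each library, a replicate block and, chosen after seeing the data, an offset from a spline (5 degrees of freedom) of log count on exonic length. The fits were tested on simulated data. The spread is between mice, and counting intervals cover counting error only. Tables and plots were made in Python 3.11.15 with pandas 2.3.3 and matplotlib 3.10.9.

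Named were the 15 higher and 15 lower genes with the smallest unadjusted p whose groups did not overlap and whose log2 fold change was over 0.5 in size, *Crebbp*, *Ep300*, *Trp53*, *Cdkn1a*, *Vcan*, *Lgr5* and *Mki67*, genes called by edgeR or DESeq2, up to 4 members of each list with the smallest unadjusted p, and genes within 20 Mb of *Crebbp* with an unadjusted p under 0.05 and a log2 fold change over 0.5 in size. Other list members and relatives were named after their values were seen. The comparison, the 43 gene lists and the tests were chosen with earlier results of these data known.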

Additional observations from a re-analysis of the deposited data

Results flagged for a closer look

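The pseudogene *Gm10736* stood out because its CBP contrast differed between p53 states by a test of the difference itself. The contrast of the p53ΔIEC mice minus that of the p53-floxed mice was -1.71 on the log2 scale (standard error 0.21, adjusted p = 0.0222 in edgeR), and all 3 CBPAA libraries lay above the CBPWT libraries in the p53-floxed mice and below them in the p53ΔIEC mice. Its sequence is found whole in *Rpl41*, and whether reads of that gene were counted for it was not tested.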

How the results depend on the processing

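Against 0 calls in CBPAAp53-floxed crypts by edgeR, DESeq2 gave 34 on the 12 libraries and 60 on the 6 libraries, edgeR without a filter on low counts 3, and the length offset 2. Of the 34, 19 were α-defensins, and for the other differences in count the cause was not tested. Leaving out single libraries gave 0 to 2 calls, and 635 to 1695 genes at an unadjusted p under 0.05 against 1174. For the p53ΔIEC mice the 1 call became 2 with DESeq2 on 12 libraries, 3 with DESeq2 on 6, 0 with edgeR on 6 and 0 with the replicate block, with 0 to 1 as single libraries were left out; the 521 genes at an unadjusted p under 0.05 became 277 with DESeq2 on 6 and 415 to 857. The 1 interaction call became 30 with DESeq2, 2 without the filter, 0 with the replicate block and 0 to 1 as single libraries were left out, and its 1502 genes at an unadjusted p under 0.05 became 905 to 2064. Without single libraries, 1438 to 2745 genes lay higher and 1416 to 2586 lower without overlap, which smaller groups favour by construction, and the count near *Crebbp* ran from 13 to 33. The replicate block gave 0 calls in CBPAAp53-floxed against CBPWTp53-floxed crypts and 935 genes at an unadjusted p under 0.05. Replicate numbers did not pair the samples: libraries of the same number correlated in their deviations from group means at -0.53 to 0.55 over 18 pairs. With the length offset, *Crebbp* went to 0.054, *Mki67* to 0.003, *Rpl41* to -0.022 and the difference of the *Clec16a* contrasts to -0.04, and without CBPAAp53-floxed replicate 2 *Mki67* went to 0.15 and *Rpl41* to -0.044, in ranges from -0.357 and up to 0.227 as single libraries were left out. All other values of named genes kept their direction. With a minimum of 10 counts in every library, the median of the NF-κB targets was 0.00. Genes with few reads, such as *Sphk1* and *Cenpw*, are limited by depth.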
